A study of Nannochloropsis oceanica with 12 samples.

Results

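The interaction of line and time asks, gene by gene, whether the difference between a knockdown line and the wild type was the same at 12 h and at 24 h. It is the difference of differences (M2 24 h minus WT 24 h) minus (M2 12 h minus WT 12 h) on a log2 scale, and it used 10 of the 12 libraries of the study and 9579 of the 9756 genes deposited. WT is wild-type *Nannochloropsis oceanica* IMET1, a unicellular marine alga. M2 is an RNA interference line of the same strain, directed at the carbonic anhydrase CA2. All cultures were grown in liquid under continuous light, collected in mid-logarithmic growth, moved to fresh medium aerated with 5% CO2, and sampled 12 h and 24 h later. The 4 groups were WT 12 h (2 libraries used of 3), M2 12 h (2 used of 3), WT 24 h (3 libraries) and M2 24 h (3 libraries), labelled as biological replicates. M2 is 1 line set against WT alone, so lowered CA2 and any other difference between the lines cannot be told apart.

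Carbonic anhydrases interconvert CO2 and bicarbonate, and in many algae they are part of the carbon concentrating mechanism that supplies CO2 to Rubisco. In an RNA interference line a transcript that pairs with the target's mRNA lowers its level, which need not remove it. *Nannochloropsis* is known for storing triacylglycerol, and diacylglycerol acyltransferases such as DGAT1A catalyse the last step of its synthesis.

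Gene IDs consist of a scaffold and a gene number, and 9755 of the 9756 name no product. None of them (0) matched the reference table used here, which has 160 rows of organelle genes, so genes are described by the shape of their response, their level and their place on a scaffold rather than by pathway. Which ID is CA2 the labels do not say, and the knockdown was not checked. Values are FPKM, sequenced fragments normalised for transcript length and library size, here divided by a factor per library of 0.9645 to 1.023 and called scaled FPKM. Sums of FPKM lay between 606886 and 617319 in the 10 libraries. Between 5 and 25 genes were at 0 in each 24 h library, against 43 to 109 in each 12 h library, and the number of reads behind the values is unknown. The groups were deposited in separate tables, and effects of the table and of the group cannot be told apart. In these bulk samples fewer cells of a kind and less RNA per cell cannot be told apart either.

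Some 12 h columns stood apart, and most of the results below depend on which of them are used. WT 12 h replicate 3 was left out: its FPKM summed to 780704, and across the 9756 genes its log2 values had a correlation of 0.715 with each of replicates 1 and 2, which had 0.995 with each other. A further column of the M2 12 h table, headed replicate 2 like the one before it, was not used. With WT 12 h replicate 3 in the fit, the count of called genes fell from 3415 to 34, of which 27 were higher and 7 lower, while 1044 genes had an unadjusted p under 0.05. The authors also deposited 1 merged value per group. The merged columns of WT 12 h, WT 24 h and M2 24 h could each be written as a weighted sum of 3 replicate columns. Their median deviations were 0.0227%, 0.000104% and 0.000113%. For M2 12 h only the 2 replicate columns used here entered the sum, and the median deviation was 28.0%. The further column of that table was not part of the sum, so its share in this deviation was not tested. The effect of these columns is given beside the results they touch.

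The line effect, M2 minus WT, differed between 12 h and 24 h for 3415 genes, 35.7% of those tested, at an adjusted p under 0.05 in limma with Benjamini-Hochberg adjustment. Such genes are referred to as called. In 1957 of them (20.4% of genes tested) M2 relative to WT was higher at 24 h than at 12 h, an upward interaction, and in 1458 (15.2%) it was lower, a downward interaction. The split depended on scaling: 57.3% of the calls were upward here, 65.0% after scaling to equal FPKM sums and 50.9% after quantile normalization. For comparison, the line effect itself was called for 57.1% of genes at 12 h and for 58.0% at 24 h, from the same libraries.

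Most interactions were small. The median absolute interaction of called genes was 0.43 on the log2 scale, beside 0.21 over all genes tested and a median standard error of 0.10. Of the 3415 called genes, 2466 changed by less than 1.5-fold and 949 by at least 1.5-fold, of which 698 were upward and 251 downward. An interaction of at least 2-fold was called for 219 genes, 2.29% of those tested, and for 79 with a pseudocount of 5 in place of 1 before taking logarithms. These were unevenly divided, with 186 upward (1.94% of genes tested) and 33 downward (0.345%), and after quantile normalization the division was 105 to 54. Only 5 upward and 4 downward genes reached 4-fold.

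The agreement of the 10 libraries was examined in 2 ways. The interaction can be computed for each of the 36 combinations of 1 library per group, and it had 1 sign in all of them for 3370 of the 3415 called genes, or 98.7%, against 45.1% of all genes tested. This held for 215 of the 219 genes with a 2-fold interaction. The same libraries made the calls, and all genes tested include the called ones. These shares therefore describe the calls and are not separate support for them. When each 24 h library was left out in turn, 2908 to 3017 of the 3415 calls were made again in the same direction. Without a 12 h library its group holds 1 library, so repeated calls are not counted here. This range therefore does not cover the 12 h groups. With any 1 of the 10 libraries left out, all 219 genes kept the sign of their interaction. As few as 164 of them were still at least 2-fold, without M2 12 h replicate 1.

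Abundant genes were called more often and scarce genes changed more. Of the 2395 genes with the highest mean level, above 51.9 scaled FPKM, 52.1% were called, against 25.2% of the 2395 with the lowest, below 13.3 scaled FPKM. The median standard error of the interaction was 0.063 in the abundant genes and 0.161 in the scarce ones. Interactions of at least 2-fold ran the other way, with 37 of the abundant genes (1.54%) and 81 of the scarce ones (3.38%). The median mean level was 16.7 scaled FPKM for the 2-fold genes and 25.5 for all genes tested.

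Called genes were sorted by their line effects at each time into reversed, faded and growing. A reversed gene had a called line effect at both times with opposite signs. A faded gene had one at 12 h that was either not called at 24 h or was smaller with the same sign, and a growing gene was the mirror image, with its line effect called at 24 h. The classes come from the same fit as the interaction, so their counts describe the calls and are not separate support for them. Of the 3415 called genes, 603 (17.7%) were reversed, 1563 (45.8%) faded and 1198 (35.1%) growing, and 51 belonged to none of these.

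**Figure D1:**
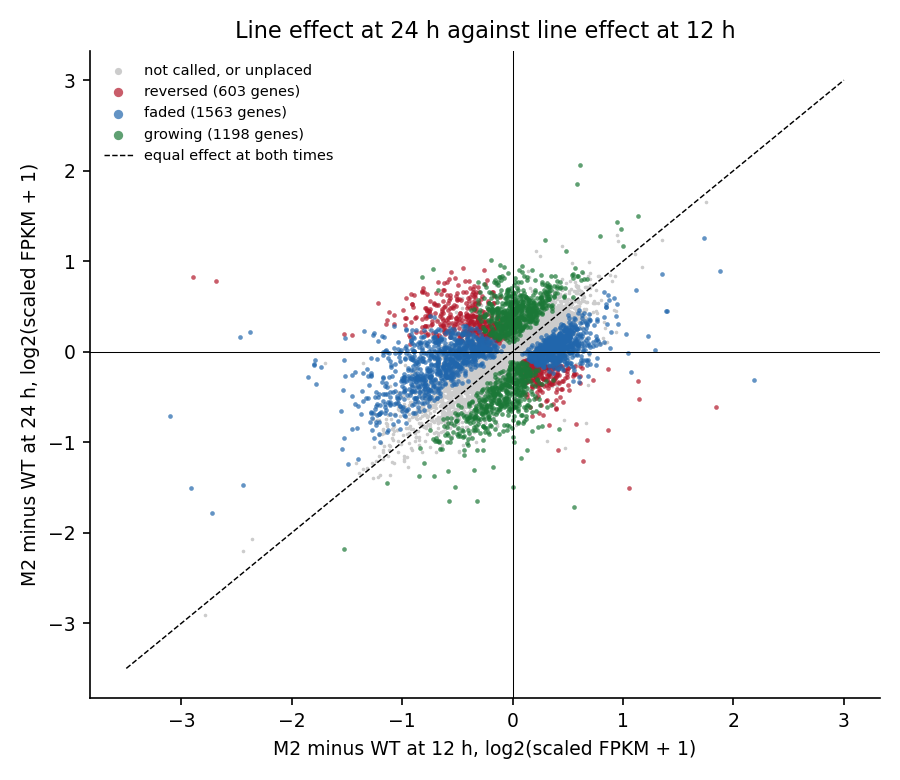
Line effect (M2 minus WT, log2 of scaled FPKM + 1) at 24 h on the vertical axis against that at 12 h on the horizontal axis, 1 point per gene, coloured by class. Genes on the dashed line have equal effects at both times. The 603 reversed genes lie at the upper left and lower right, the 1563 faded genes spread along the horizontal axis and the 1198 growing genes along the vertical axis.

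Larger interactions were mostly reversals. Among the 219 genes with a 2-fold interaction 129 (58.9%) were reversed, 66 (30.1%) faded, 22 growing and 2 unplaced. The reversed class needs a called line effect at both times, which larger effects reach more easily. By the sign of the line effects alone, 1724 of all 3415 called genes were reversed. Within the 186 upward ones the reversed class held 114 and the faded class 61, and in both of these M2 was called below WT at 12 h. The 33 downward ones were 15 reversed, 5 faded, 12 growing and 1 unplaced.

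**Figure D2:**
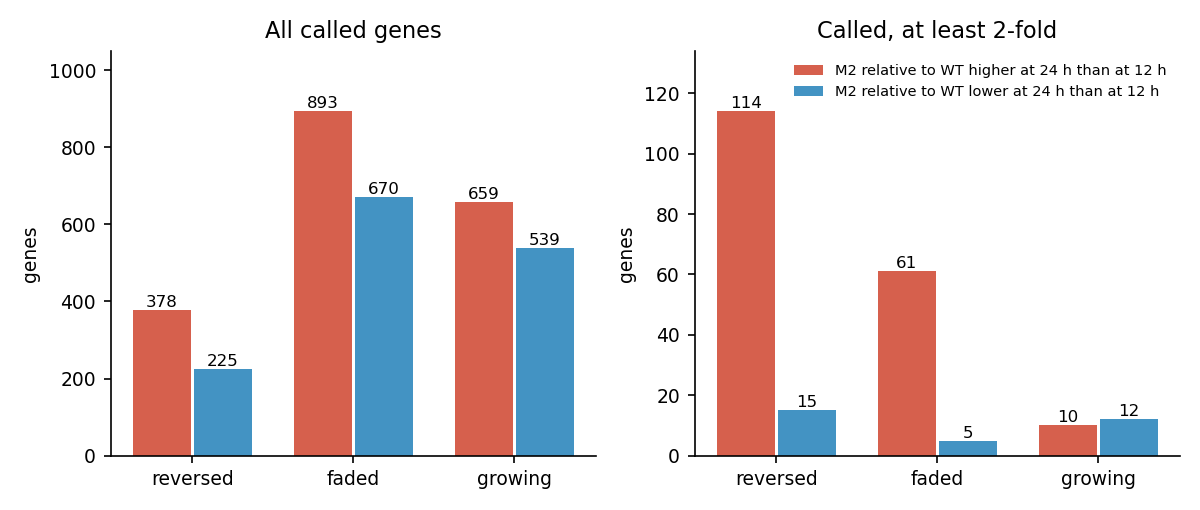
Number of genes in each class (vertical axis) for all called genes on the left and for those with at least a 2-fold interaction on the right, with upward and downward interactions as separate bars. The left panel holds 893 upward and 670 downward faded genes, an order of classes that changes with quantile normalization and with classes by sign alone, and the right panel 114 upward reversed genes.

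In the 378 upward reversed genes M2 was below WT at 12 h and above it at 24 h, with median line effects of −0.39 and 0.34. The median level of these genes was 27.7 and 28.0 scaled FPKM in the WT 12 h libraries, 18.8 and 19.0 in M2 12 h, 31.6, 30.6 and 31.9 in WT 24 h, and 39.2, 39.8 and 38.7 in M2 24 h. M2 thus held both the lowest and the highest libraries, with WT between them at both times. In the 225 downward reversed genes the line effects had the opposite signs, with medians of 0.26 at 12 h and −0.25 at 24 h. Here WT held the lowest and the highest libraries, and M2 lay between them. The median level was 43.0 and 42.6 in WT 12 h, 53.9 and 52.0 in M2 12 h, 57.2, 55.8 and 57.9 in WT 24 h, and 46.3, 47.3 and 45.4 in M2 24 h. The 114 upward reversed genes with a 2-fold interaction had a median level of 18.4 and 17.9 in WT 12 h, 9.61 and 9.57 in M2 12 h, 19.2, 19.1 and 19.4 in WT 24 h, and 26.9, 27.7 and 27.2 in M2 24 h. The 15 downward ones were led by WT, whose medians went from 16.1 and 17.1 at 12 h to between 87.1 and 93.4 at 24 h, while M2 went from 30.8 and 31.3 to between 65.1 and 69.1.

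Of the 3 classes the faded one held the most genes in this fit, but not after quantile normalization (1252 faded, 1403 growing) or with classes by the sign of the line effects alone (1000 faded, 1724 reversed). In its 893 upward genes M2 was below WT at 12 h by a median of 0.64 on the log2 scale, and the median line effect at 24 h was −0.08. At 24 h the line effect was no longer called for 545 of the 893 and was still called, but smaller, for 348. The estimates at 12 h and 24 h had opposite signs for 307 of the 893, and for 32 of the 61 with a 2-fold interaction. In the 670 downward faded genes M2 was above WT at 12 h by a median of 0.41, and at 24 h the line effect was not called for 478 and smaller for 192. Estimates of opposite sign at the 12 h and 24 h times were found for 256 of the 670. For the 61 upward faded genes with a 2-fold interaction the median level was 12.5 and 10.9 in WT 12 h and 4.07 and 4.51 in M2 12 h, then 16.2, 16.6 and 16.4 in WT 24 h and 16.4, 15.5 and 15.0 in M2 24 h. The lines were separate at 12 h and overlapped at 24 h.

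Growing genes had nearly equal median levels in both lines at 12 h and parted by 24 h, and the larger median time change was in WT. In the 659 upward growing genes the median level was 40.4 and 40.1 in WT 12 h, 41.9 and 42.6 in M2 12 h, 31.4, 31.8 and 32.0 in WT 24 h, and 44.2, 44.9 and 44.3 in M2 24 h. The time change had a median of −0.39 in WT and −0.02 in M2. At 12 h the line effect was not called for 485 of the 659 and was called, but smaller, for 174. For 302 of the 659 the estimates at 12 h and 24 h had opposite signs, so the medians at 12 h mix both signs. In the 539 downward growing genes the median level went from 40.4 and 40.5 to between 54.8 and 55.9 in WT, and from 37.7 and 36.9 to between 38.9 and 40.5 in M2. Here 432 of the 539 rose with time in WT and 270 rose in M2. The line effect at 12 h was not called for 334 of the 539 and was called, but smaller, for 205.

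**Figure D3:**
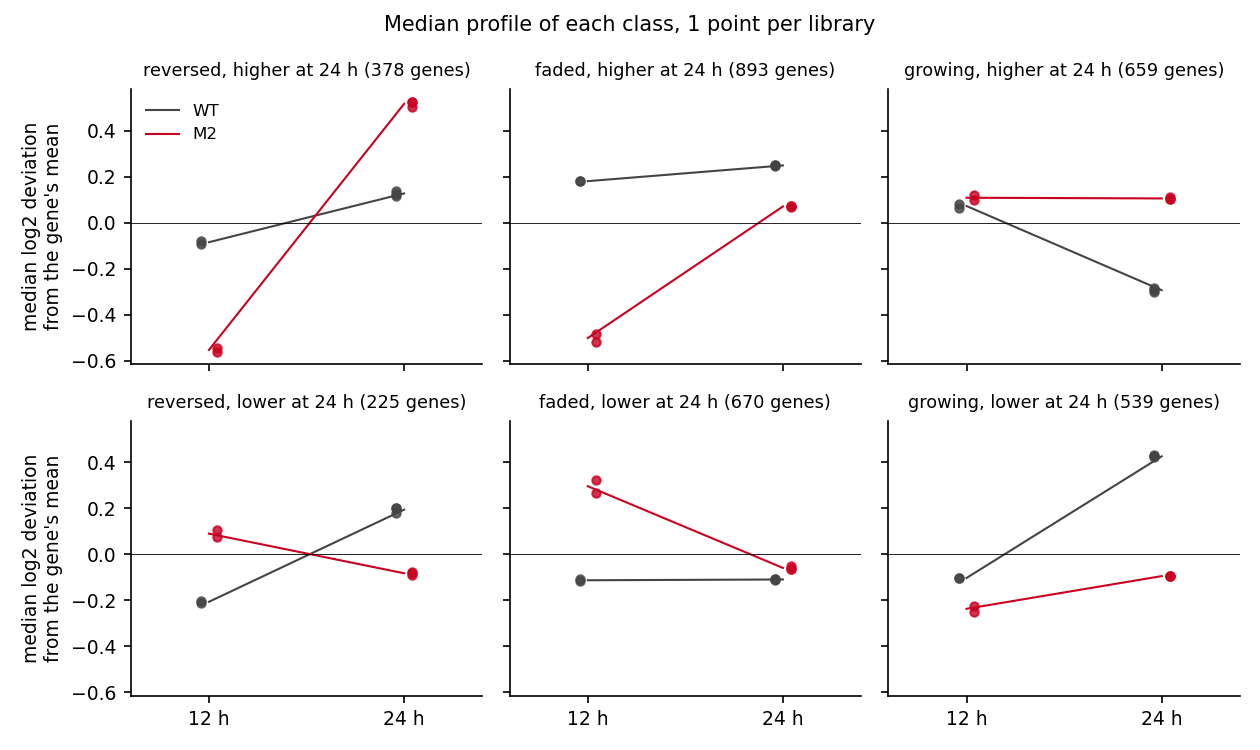
Median over the genes of each class of the log2 deviation from the gene's own mean (vertical axis), 1 point per library, at 12 h and 24 h, with lines through the group means. Upper panels hold upward and lower panels downward interactions; M2 makes the larger movement in the reversed upward panel and in both faded panels, and WT in both growing panels.

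The same contrast can be read as the time change in M2 minus that in WT. Over all genes tested 34.9% rose and 35.2% fell between 12 h and 24 h in M2, 70.1% together, and 33.1% rose and 33.0% fell in WT, 66.2% together. Among the 1957 upward interactions 1266 (64.7%) rose in M2 and 709 (36.2%) rose in WT. By definition an upward gene that rises in WT rises by more in M2, and all 709 were called as rising in both lines. A further 439 rose in M2 without a called change in WT, 118 rose in M2 and fell in WT, 248 fell in WT alone and 432 fell in both. Among the 1458 downward interactions 807 (55.3%) rose in WT and 766 (52.5%) fell in M2. Opposite movements of the lines were a minority in either direction, with 118 upward and 130 downward genes.

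Large upward interactions were rises in M2 when measured from the M2 12 h libraries used. Of the 186 genes 173 (93.0%) rose with time in M2, by a median of 1.48 over the set, and 87 (46.8%) rose in WT, with a median time change of 0.24. The merged M2 12 h column lay a median of 2.02 above those M2 12 h libraries for these genes, which is more than that rise. Of the 33 large downward interactions 29 (87.9%) rose in WT, with a median of 1.64, while 15 rose and 12 fell in M2.

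M2 at 12 h was the group most often set apart from the other 3. The group whose mean lay farthest from the mean of the others was M2 12 h for 41.2% of called genes, WT 24 h for 27.3%, WT 12 h for 16.4% and M2 24 h for 15.1%. Over all genes tested the shares were close to these, at 39.0%, 29.1%, 16.7% and 15.3%, so this order was not particular to the called genes. Among the 186 large upward interactions it was more uneven. M2 12 h was the low group for 129 (69.4%) and M2 24 h the high group for 34 (18.3%). WT 12 h was the high group for 15 (8.06%) and WT 24 h the low group for 8 (4.3%). Over all genes tested with an upward estimate these shares were 36.0%, 18.2%, 16.3% and 29.6%, so that of M2 24 h was no larger here. Among the 33 large downward ones WT 24 h was the high group for 21 (63.6%), beside 28.5% of all genes tested with a downward estimate.

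The large upward interactions were also genes for which the 12 h columns differed. In WT 12 h replicate 3 the median of these 186 genes was 1.45 above WT 12 h replicates 1 and 2 on the log2 scale, against −0.09 over all genes tested. In the merged M2 12 h column they were 2.02 above the M2 12 h replicates used, against −0.20 over all genes tested. For the 33 large downward interactions the corresponding medians were −0.06 and −0.15. With WT 12 h replicate 3 in the fit, 213 of the 219 large interactions had the same sign and 182 were still at least 2-fold, but 18 were called. With the 4 merged columns in place of the replicates, 67 of the 186 upward interactions (36.0%) had the same sign, with a median of −0.25, and 27 of the 33 downward ones (81.8%), with a median of −0.99. The sign of most large upward interactions thus turned with the merged columns, and that of most large downward ones did not.

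By class, the sign was the same with the merged columns for 42 of the 114 large upward reversed genes, 19 of the 61 faded and 5 of the 10 growing. Over all called genes it was the same for 479 of 659 upward growing genes, 158 of 378 upward reversed and 368 of 893 upward faded ones. Among downward interactions it was the same for 476 of 539 growing genes, 184 of 225 reversed and 412 of 670 faded ones, and over all genes tested for 54.3%. The merged WT 12 h column includes replicate 3, so the parts of the WT 12 h and M2 12 h columns in these changes were not tested apart.

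The gene with the largest interaction in each class and direction is described next. The largest of all was scaffold00247.g6942, an upward reversed gene. Its level was 36.3 and 33.5 scaled FPKM in WT 12 h, 3.89 and 3.75 in M2 12 h, 2.91, 4.61 and 4.03 in WT 24 h, and 7.68, 8.12 and 6.72 in M2 24 h. WT 12 h stood far above the other groups, and the lines did not overlap at either time. The line effect was −2.89 at 12 h on the log2 scale (SE 0.15, adjusted p = 6.1e-08) and 0.82 at 24 h (SE 0.12, adjusted p = 0.00016). The interaction was 3.72 (SE 0.20, adjusted p = 1.4e-07, limma), between 3.28 and 4.19 over the library combinations. It was 3.58 with WT 12 h replicate 3, where the gene had 20.7 FPKM, and 2.93 with the merged columns.

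The largest downward reversal was scaffold00182.g5607. Its level was 6.10 and 5.35 scaled FPKM in WT 12 h, 12.1 and 13.8 in M2 12 h, 210, 201 and 201 in WT 24 h, and 69.1, 68.9 and 75.4 in M2 24 h. No 2 groups overlapped, and both lines rose steeply with time, WT by 4.93 and M2 by 2.37 on the log2 scale. The line effect was 1.05 (SE 0.08) at 12 h and −1.51 (SE 0.06) at 24 h, and the interaction −2.56 (SE 0.10, adjusted p = 1.6e-08). With the merged columns it was −2.60. In WT 12 h replicate 3 the gene was listed at 0, and with that library the interaction was −3.46 and no longer called (adjusted p = 0.20).

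The largest upward faded gene, scaffold00140.g4741, was scarce. It had 9.46 and 7.95 scaled FPKM in WT 12 h, 0.418 and 1.16 in M2 12 h, 2.15, 1.46 and 2.33 in WT 24 h, and 3.21, 1.84 and 2.03 in M2 24 h. The lines were well separated at 12 h and overlapped at 24 h, the time change being −1.71 in WT and 0.92 in M2 on the log2 scale. The line effect went from −2.47 (SE 0.25, adjusted p = 8.5e-06) to 0.16 (SE 0.20, adjusted p = 0.51), an interaction of 2.63 (SE 0.32, adjusted p = 8.7e-05). It was 2.78 with WT 12 h replicate 3 and 1.83 with the merged columns. At such low levels the pseudocount added before taking logarithms matters, and the interaction was 3.67 with 0.1 and 1.32 with 5 in place of 1.

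The largest downward faded gene was scaffold00009.g409, with 6.60 and 3.01 scaled FPKM in WT 12 h, 31.6 and 18.3 in M2 12 h, 8.94, 11.1 and 10 in WT 24 h, and 11.6, 8.66 and 4.62 in M2 24 h. M2 stood above WT at 12 h, and at 24 h the WT values lay within the range of M2. The replicates of each 12 h group lay far apart, and the interaction of −2.50 had an SE of 0.48 (adjusted p = 0.002) and ranged from −4.13 to −1.0 over the combinations. It was −3.31 and not called with WT 12 h replicate 3 (adjusted p = 0.24), where the gene was listed at 0, and −1.51 with the merged columns.

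The largest upward growing gene was scaffold00043.g1554, also scarce. Its level was 11.2 and 5.59 scaled FPKM in WT 12 h, 6.14 and 2.60 in M2 12 h, 5.52, 3.07 and 5.55 in WT 24 h, and 9.01, 8.93 and 8.61 in M2 24 h. M2 was above WT without overlap at 24 h, and the lines overlapped at 12 h. The line effect was −0.82 at 12 h (SE 0.34, adjusted p = 0.058) and 0.82 at 24 h (SE 0.28, adjusted p = 0.025). Its interaction of 1.64 (SE 0.44, adjusted p = 0.013) was 1.19 and not called without WT 12 h replicate 1 (adjusted p = 0.064). With WT 12 h replicate 3, where the gene had 198 FPKM, it was 3.25 and not called (adjusted p = 0.54), and with a pseudocount of 5 it was 1.03.

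For the downward growing gene scaffold00090.g3311 the level was 2.75 and 8.16 scaled FPKM in WT 12 h, 10.3 and 5.58 in M2 12 h, 14.1, 11.0 and 14.5 in WT 24 h, and 4.46, 2.45 and 3.16 in M2 24 h. WT was above M2 without overlap at 24 h, and the lines overlapped at 12 h. The line effect at 24 h was −1.72 (SE 0.30, adjusted p = 0.00051), and the interaction −2.28 (SE 0.48, adjusted p = 0.0036). It was −1.46 with a pseudocount of 5 and −1.14 with WT 12 h replicate 3 (adjusted p = 0.70), and its sign turned with the merged columns, to 0.25.

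DGAT1A, isotig00738.DGAT1A, whose ID carries a gene name, had no called interaction. Its level was 25.6 and 24.6 scaled FPKM in WT 12 h, 29.9 and 30.9 in M2 12 h, 22.4, 21.9 and 22.6 in WT 24 h, and 25.5, 25.0 and 23.4 in M2 24 h. M2 was above WT without overlap at both times, by 0.26 (SE 0.06) at 12 h and 0.14 (SE 0.05) at 24 h. The interaction was −0.13 (SE 0.08, adjusted p = 0.24), and it was 0.01 with WT 12 h replicate 3 and −0.51 with the merged columns.

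**Figure D4:**
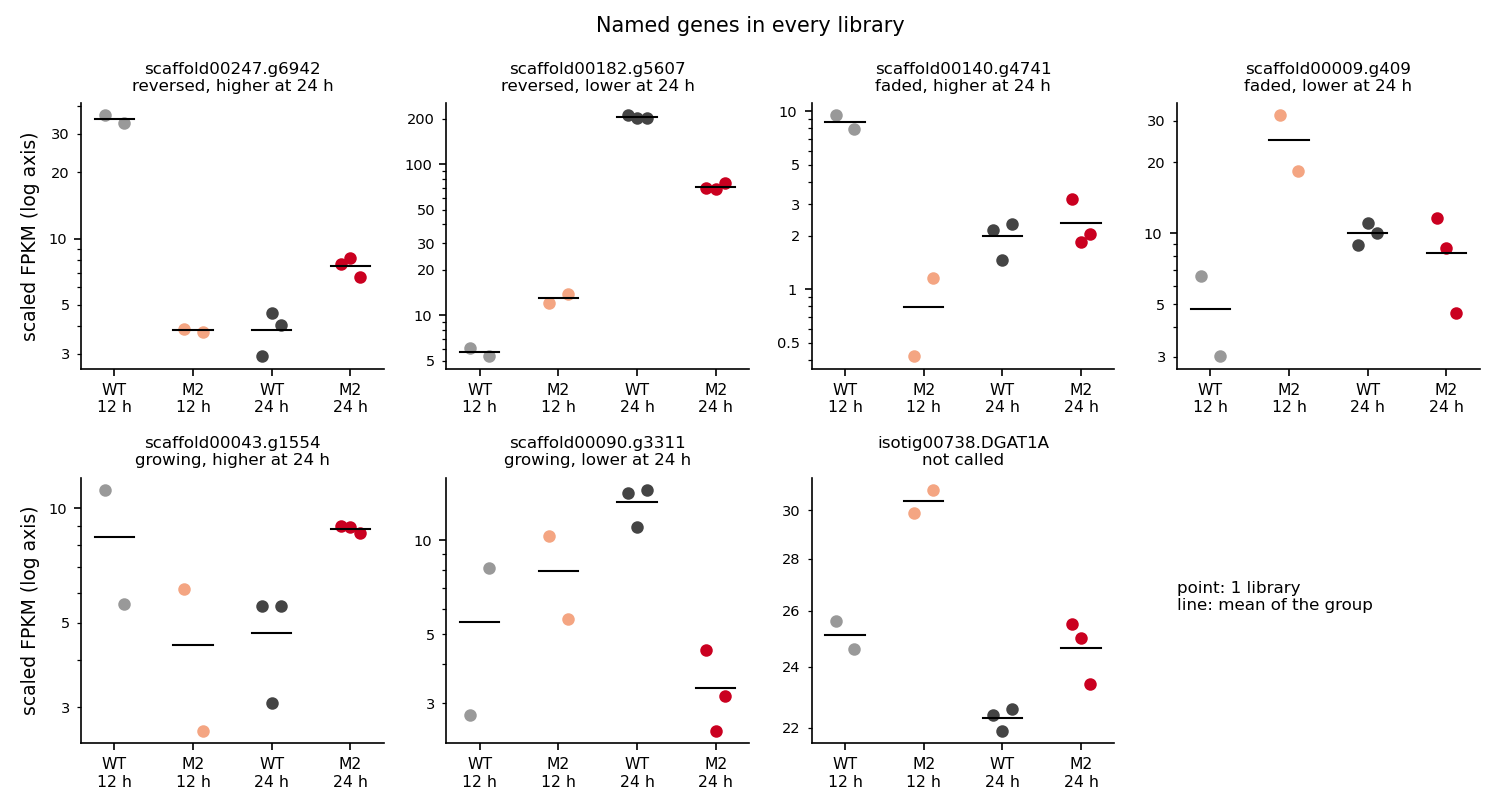
Level of the 6 genes with the largest interaction in each class and direction, and of DGAT1A, in scaled FPKM on a logarithmic axis, with 1 point per library and a line at the group mean; the axis differs between panels. The faded and growing genes show lines that overlap at 1 time only, and scaffold00182.g5607 shows 4 groups without overlap.

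Gene IDs on a scaffold are numbered, and genes with consecutive numbers are called neighbours here. That the numbers follow the order of genes on the DNA was not checked, for want of an annotation of these IDs. Of 8728 pairs of consecutive numbers with both genes tested, both were called in 1162 (13.3%). The interactions of these had the same direction in 741 pairs (63.8%) and opposite directions in 421 (36.2%), and over all 8728 pairs the estimates had the same sign in 4769 (54.6%). Genes with a 2-fold upward interaction had 326 neighbours, a neighbour being counted once for each such gene beside it. Of these 141 (43.3%) were called upward, beside 20.4% of all genes, and 54 (16.6%) were themselves 2-fold upward, beside 1.94%. The stretches of scaffold00295 and scaffold00026 described below hold 15 and 9 of the 186 genes with a 2-fold upward interaction. Neighbours of the 2-fold downward genes were called downward in 11 of 58 cases (19.0%, beside 15.2%), and 0 of the 58 reached 2-fold. The libraries carry no strand information, so which of 2 overlapping neighbours a read came from is unknown where they lie on opposite strands.

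Some of the 2-fold upward genes stood close together. Of 427 blocks of 20 consecutive tested genes on a scaffold, 324 held no 2-fold upward gene, 85 held 1, 11 held 2 and 7 held at least 3. The blocks with the most were both among the last numbers of scaffold00295, with 9 and 7. The blocks and the stretches below were chosen after the values were seen, so no test of them is given. Runs of at least 3 consecutive called genes of the same direction numbered 72 upward and 50 downward, and the longest were 9 and 6 genes.

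The last 30 IDs of scaffold00295 held the longest run. All but the last of them were tested, numbers 8686 to 8716, and of these 29 genes 25 were called, each upward, and 15 had a 2-fold interaction. The interaction had a median of 1.01 and lay between 0.23 and 1.52, above 0 in all 29 genes, although their mean levels ranged from 5.26 to 372 scaled FPKM. By class 13 were reversed, 4 faded and 8 growing. The median level of the stretch was 17.6 and 15.6 in WT 12 h, 13.9 and 13.0 in M2 12 h, 24.8, 25.1 and 26.4 in WT 24 h, and 34.9, 39.0 and 39.9 in M2 24 h. M2 held the lowest libraries at 12 h and the highest at 24 h.

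**Figure D5:**
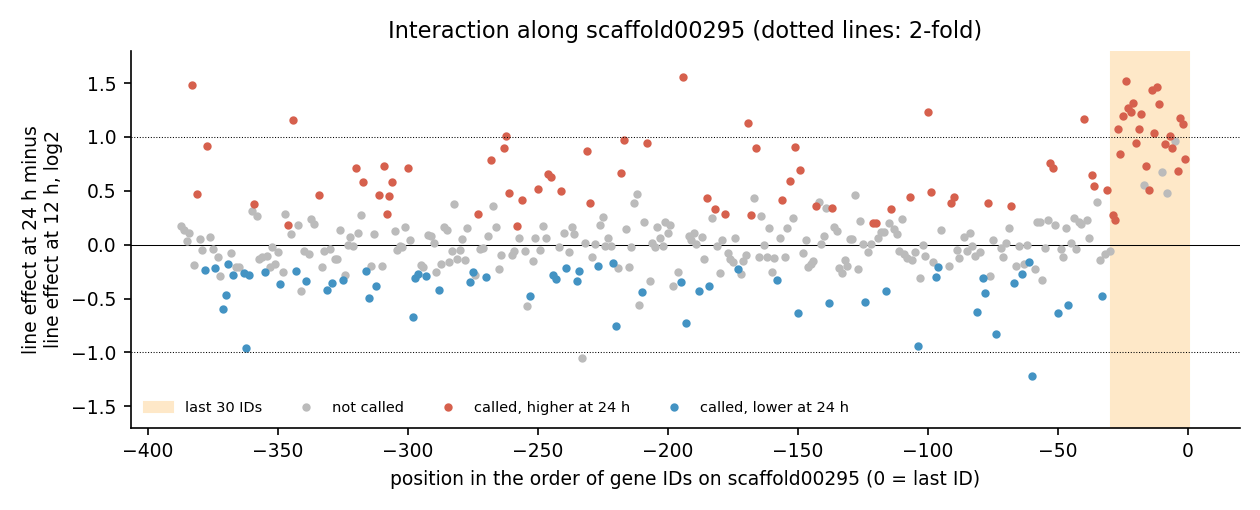
Interaction (line effect at 24 h minus line effect at 12 h, log2) of the tested genes of scaffold00295, which has 388 IDs, in the order of their gene numbers counted back from the last ID. Upward and downward calls are mixed along most of the scaffold, and all 29 tested genes among the last 30 IDs lie above 0.

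Within the stretch, scaffold00295.g8691 had the largest interaction, 1.52 (SE 0.12, adjusted p = 2.8e-06). Its level was 31.3 and 26.5 scaled FPKM in WT 12 h, 15.4 and 14.8 in M2 12 h, 30, 28.3 and 29.0 in WT 24 h, and 47.9, 41.0 and 47.7 in M2 24 h. The WT libraries overlapped between the times, while M2 went from the lowest group to the highest. Its neighbour scaffold00295.g8692 had the same shape, at 50.9 and 52.5, 29.4 and 29.5, 52.9, 51.6 and 53.0, and 71.9, 72.8 and 76.1 scaled FPKM in the same order of groups. The most abundant gene of the stretch, scaffold00295.g8686, was of another kind: it had 383 and 373 in WT 12 h, 500 and 521 in M2 12 h, 245, 241 and 251 in WT 24 h, and 404, 396 and 404 in M2 24 h. M2 was above WT at both times, and its interaction was 0.27 (SE 0.04, adjusted p = 0.0002).

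A shorter stretch of the same kind stood among the last numbers of scaffold00026, where the last 20 IDs, numbers 1499 to 1519, were all tested. Of these 12 were called, each upward, and 9 had a 2-fold interaction, with a median of 0.85. Here M2 was low at 12 h (median line effect −0.57) and little above WT at 24 h (0.16). The clearest gene was scaffold00026.g1510, a faded gene with 23.8 and 24.6 scaled FPKM in WT 12 h, 5.83 and 6.75 in M2 12 h, 22.1, 23.1 and 24.3 in WT 24 h, and 22.5, 21.9 and 20.5 in M2 24 h. Only the M2 12 h libraries departed from a common level, and the interaction was 1.69 (SE 0.11, adjusted p = 5.7e-07).

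Both stretches were also high in the 12 h columns that the comparison leaves out. The median FPKM as deposited in WT 12 h replicate 3 was 64.5 for the stretch on scaffold00295 and 98.9 for that on scaffold00026. In the merged M2 12 h column the medians were 58.7 and 52.5. These were above the medians of the M2 12 h replicates used (13.9 and 13.0 on scaffold00295, 5.81 and 6.38 on scaffold00026). With the merged columns the interaction was above 0 for 10 of 29 genes, with a median of −0.29, and for 4 of 20, with a median of −0.31. In M2 the median of both stretches was therefore higher at 24 h than in the 12 h replicate columns used and lower than in the merged 12 h column. The further M2 12 h column was not examined, and its part in the difference between these columns was not tested.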

How the data were processed

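Polyadenylated RNA of the 4 groups was sequenced in read pairs from libraries without strand information, per the labels' protocols. The labels give whole cells and total RNA but also nuclear RNA as molecule subtype, and their treatment text describes another layout, so groups follow the titles and the design text. The authors deposited FPKM values, in 1 table per group and in merged columns per group. TopHat2 2.0.4 and Cufflinks 2.0.2 were named in the submitters' processing notes, and the genome build was not given in the sources used here. In the M2 24 h table the columns are headed MT, and 1 column of the series, the second headed M2 12 h replicate 2, was not used.

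FPKM of the 10 libraries were scaled by median-of-ratios factors over 9615 genes. Genes with a mean of at least 1 scaled FPKM were fitted on log2(scaled FPKM + 1), which understates changes of low genes, with limma 3.58.1 in R 4.3.3 (group means, intensity trend, 2-sided, Benjamini-Hochberg over 9579 genes, threshold 0.05). The script was tested on simulated data. With 2 or 3 libraries a group, p-values measure the spread between these libraries. Named genes were, per class and direction, the largest interaction of at least 2-fold with 1 sign in every library combination and at least 5 scaled FPKM in a group. Members, libraries and lists were chosen with earlier results of these data known, and pathway lists could not be applied. Alternatives were 3 other scalings, pseudocounts of 0.1 and 5, other filters and moderation, a replicate block, WT 12 h replicate 3, each library left out and classes by sign alone. A threshold of 0.01, merged columns for all genes and blocks of 20 genes were added after the data were seen. Tables and figures used Python 3.11.15, numpy 2.4.6, pandas 2.3.3, scipy 1.17.1 and matplotlib 3.10.9.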

Additional observations from a re-analysis of the deposited data

Results flagged for a closer look

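The line effect differed between 12 h and 24 h, by the test of the interaction itself, for 3415 genes. The genes named as the largest of their class were chosen among these calls, so that each passed the test follows from the choice. Their interactions on the log2 scale were 3.72 for scaffold00247.g6942, −2.56 for scaffold00182.g5607, 2.63 for scaffold00140.g4741, −2.50 for scaffold00009.g409, 1.64 for scaffold00043.g1554 and −2.28 for scaffold00090.g3311. With WT 12 h replicate 3 in the fit, scaffold00182.g5607, scaffold00009.g409, scaffold00043.g1554 and scaffold00090.g3311 were not called.

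Outside the columns compared, the merged M2 12 h column departed from weighted sums of the 2 M2 12 h replicate columns used by a median of 28.0%. The other 3 merged columns, each set against 3 replicate columns, departed by at most 0.0227%. A further M2 12 h column did not enter the sum, and its part in the deviation was not tested. The part of the merged M2 12 h column in the interactions was not tested by itself. The alternative with merged columns also changes the WT 12 h column, which includes replicate 3.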

How the results depend on the processing

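Depth in reads is unknown, and 2 libraries per 12 h group limit the precision. With WT 12 h replicate 3 included, 34 genes were called, 20 at least 2-fold, with 9 reversed, 16 faded and 9 growing, and the interaction of DGAT1A changed sign to 0.01. The merged columns gave 950 genes at least 2-fold, without a test, and 0.25 for scaffold00090.g3311. A pseudocount of 5 left 79 genes at least 2-fold. Quantile normalization gave 1252 faded and 1403 growing. With classes by sign alone, 1724 were reversed, 1000 faded and 691 growing. An adjusted p under 0.01 gave 2081 calls, 816 faded and 674 growing. Under the other scalings, filters, moderation settings and a pseudocount of 0.1, the 5 counts stayed within 1.5 times. Leaving out 1 library gave 2918 to 3631 calls, 191 to 306 at least 2-fold, 518 to 646 reversed, 1268 to 1700 faded and 1027 to 1228 growing. The replicate block gave 3217 calls, 220 at least 2-fold. Deviations from the group means had r from −0.042 to 0.034 across genes in the 13 pairs of libraries with the same number. The 2 libraries of a 12 h group deviate as mirror images, so these pairs are not independent. Whether libraries of the same number shared a culture or a day cannot be told from these values. The cause of the shifts in the counts was not tested.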
